A study of Mus musculus with 8 samples.

Results

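The enzymes of the pentose phosphate pathway and their partners in making NADPH were followed in dermal fibroblasts of mice fed a high fat (HFD) or normal diet (ND). They are 9 listed genes, namely Pgd, G6pdx and Pgls of the oxidative branch, Rpia, Rpe, Tkt and Taldo1 of the non-oxidative branch, and the NADP-dependent dehydrogenase genes Me1 and Idh1. The genes were chosen by the rise of Pgd, which was among the largest between these diets. Their differences between diets are therefore given as a description without p-values. Of the 9 genes, 7 were measured by a probe set that the array's annotation gives to that gene alone, out of 17097 genes measured in this way. G6pdx and Rpe were not analysed here. The mice were female, started on their diet at 2 months of age, stayed on it for 6 months and were all killed on the same day. Strain, genotype and the composition of the diets are not given in the sources used here. Dermis was freed of the subdermis and digested, and 10000 cells per sample were sorted as Pdgfra and CD34 positive and as negative for CD45, CD117, CD24, CD31 and EpCam. After 20 cycles of amplification, 4 samples from ND and 4 from HFD were read on arrays. ND 4 is excluded by the quality control label with no reason stated, so that ND 1 to 3 were compared with HFD 1 to 4 and ND 4 is given beside them. Each array was taken as a separate mouse, and if that does not hold, p-values measure only the spread between these samples.

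The pentose phosphate pathway draws glucose-6-phosphate from glycolysis. Its oxidative branch yields NADPH and ribulose-5-phosphate through glucose-6-phosphate dehydrogenase (G6pdx), 6-phosphogluconolactonase (Pgls) and 6-phosphogluconate dehydrogenase (Pgd). Its non-oxidative branch converts pentoses into one another with an isomerase (Rpia) and an epimerase (Rpe) and returns carbon to glycolysis through transketolase (Tkt) and transaldolase (Taldo1). Cytosolic malic enzyme (Me1) and isocitrate dehydrogenase (Idh1) are further sources of NADPH, which fatty acid synthesis, sterol synthesis and the reduction of glutathione and thioredoxin consume.

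In the brightest probe sets Pgd had the largest difference of the measured genes, and with probe sets of the suffix x_at left out, Me1 had. Pgd was higher in HFD by 1.08 on the log2 scale with a standard error of 0.12 (2.12-fold), Me1 was at a difference of 0.44 (SE 0.15) and Tkt at 0.40 (SE 0.12). Standard errors (SE) are those of limma, which pulls the spread of each gene towards that of genes of like level. Taldo1 and Pgls lay within 0.10 of equality, while Rpia (−0.12, SE 0.09) and Idh1 (−0.24, SE 0.11) were on the lower side. Of the 7 measured genes, 1 passed an adjusted p under 0.05 as higher in HFD (Pgd) and 0 as lower, in limma with Benjamini-Hochberg adjustment over all genes. Over all 17097 genes, 2.62% passed as higher and 2.73% as lower. In 3 of the 7 genes (Pgd, Tkt and Me1) all HFD arrays lay above all ND arrays, which was so for 9.95% of all genes, and in 0 all HFD arrays lay below, against 7.99% of all genes. Since the genes were chosen with this contrast known, nothing is read from these counts. In RNA of sorted cell populations, a change in the share of a cell type and a change of RNA per cell cannot be told apart.

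**Figure D1:**
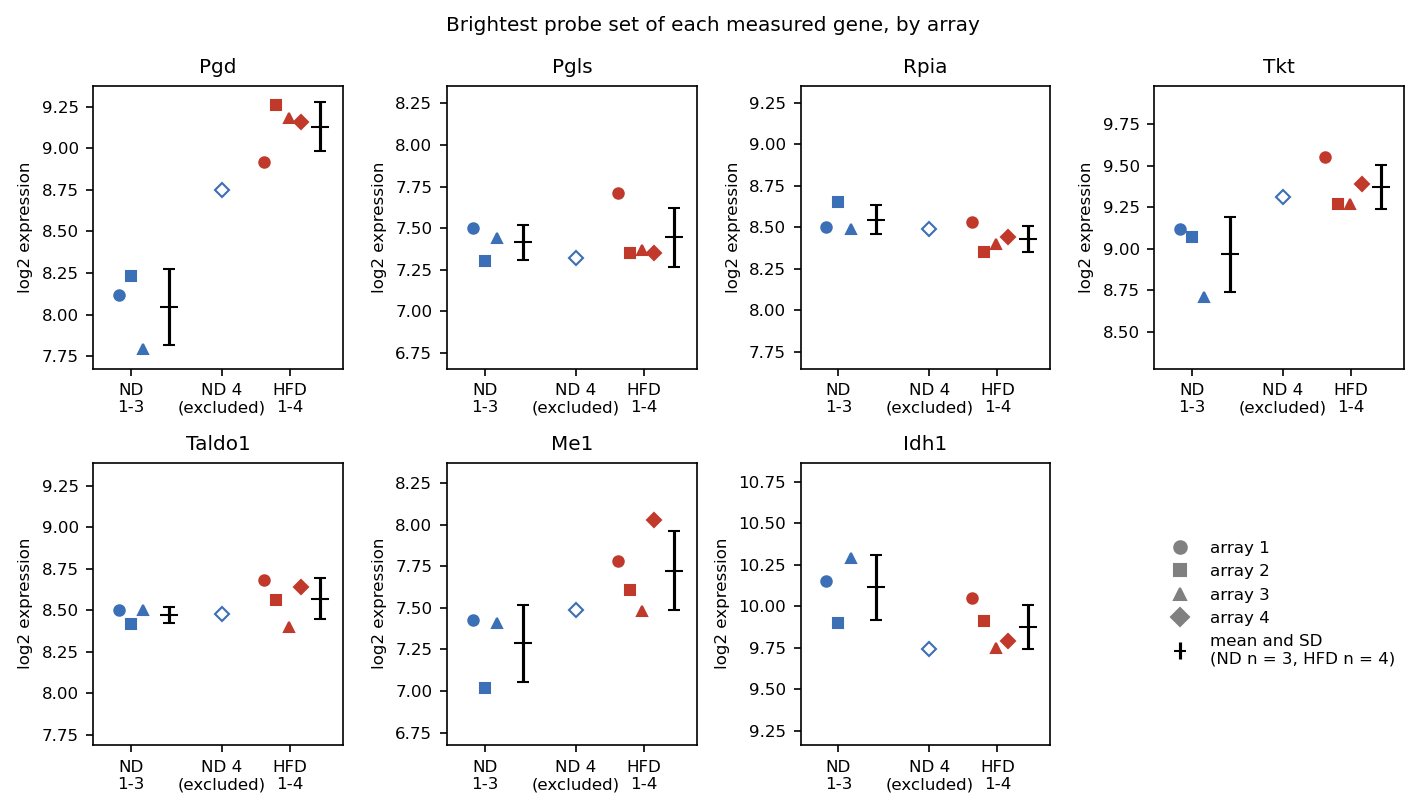
Log2 expression of the brightest probe set of the 7 measured genes by array, with the mean and SD of ND 1 to 3 (blue, n = 3) and HFD 1 to 4 (red, n = 4) beside the points and ND 4 as an open symbol. All axes span the same range of log2 units. Pgd shows a gap of 0.69 between the diets, Tkt of 0.15 and Me1 of 0.05, and the other 4 genes overlap.

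Pgd encodes the enzyme that releases ribulose-5-phosphate, the second step of the pathway that makes NADPH. Its brightest probe set read 8.12, 8.23 and 7.79 in ND 1, 2 and 3, and 8.92, 9.26, 9.18 and 9.16 in HFD 1 to 4. The diets did not overlap, ND 3 was the lowest array and HFD 1 the lowest of its diet. The ND mean was 8.05 ± 0.23 (SD, n = 3), and that of HFD was 9.13 ± 0.15 (SD, n = 4). Among genes past the threshold this was the third largest rise (place 3), between Tmem176a (1.10) and Dkk2 (1.08). Over all genes, passed or not, Pgd held place 12 from the top. The excluded array ND 4 read 8.75, which is 0.70 above the ND mean and 0.38 below the HFD mean. With ND 4 counted as an ND array the difference was 0.91 (SE 0.17), and Pgd then no longer passed the threshold.

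The size of the Pgd difference depended on the probe set. The brightest set carries the suffix x_at, by which the maker of the array marks sets with some probes that can also match other transcripts. A further x_at set gave 8.12, 8.20 and 7.81 in ND 1 to 3 and 8.90, 9.15, 9.05 and 9.16 in HFD 1 to 4, a difference of 1.02 (SE 0.12). On each array it lay within 0.13 of the brightest set, so that the pair may not be independent readings. The remaining set, with the suffix a_at, read 7.97, 8.01 and 8.03 in ND 1 to 3 and 8.21, 8.30, 8.25 and 8.19 in HFD 1 to 4. Here too the diets did not overlap, with a gap of 0.16, but the difference was 0.23 (SE 0.08, 1.18-fold), and ND 3 was the highest ND array, not the lowest. The spread of the a_at set within diets was small (pooled SD 0.04, against 0.18 in the brightest set). The pull of limma makes its SE larger than that spread alone would. This set did not pass the threshold in a fit over every probe set, whereas both x_at sets did. In that fit 2.21% of all 28898 sets passed as higher in HFD, 2.71% of the 1180 x_at sets and 3.04% of the 3648 a_at sets. All HFD arrays lay above all ND arrays in 9.67% of all sets, 12.6% of x_at sets and 13% of a_at sets. Differences of this kind between sets of a gene were common. Of 16 genes with an x_at brightest set, a change past 0.5 and a set of another suffix, 12 had less than 50% of that change in the other set. The same held for 260 of 354 genes without an x_at set in the comparison. Both counts start from brightest sets picked for a large change, which favours a smaller change in the other set. Pgd is itself among the 12.

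**Figure D2:**
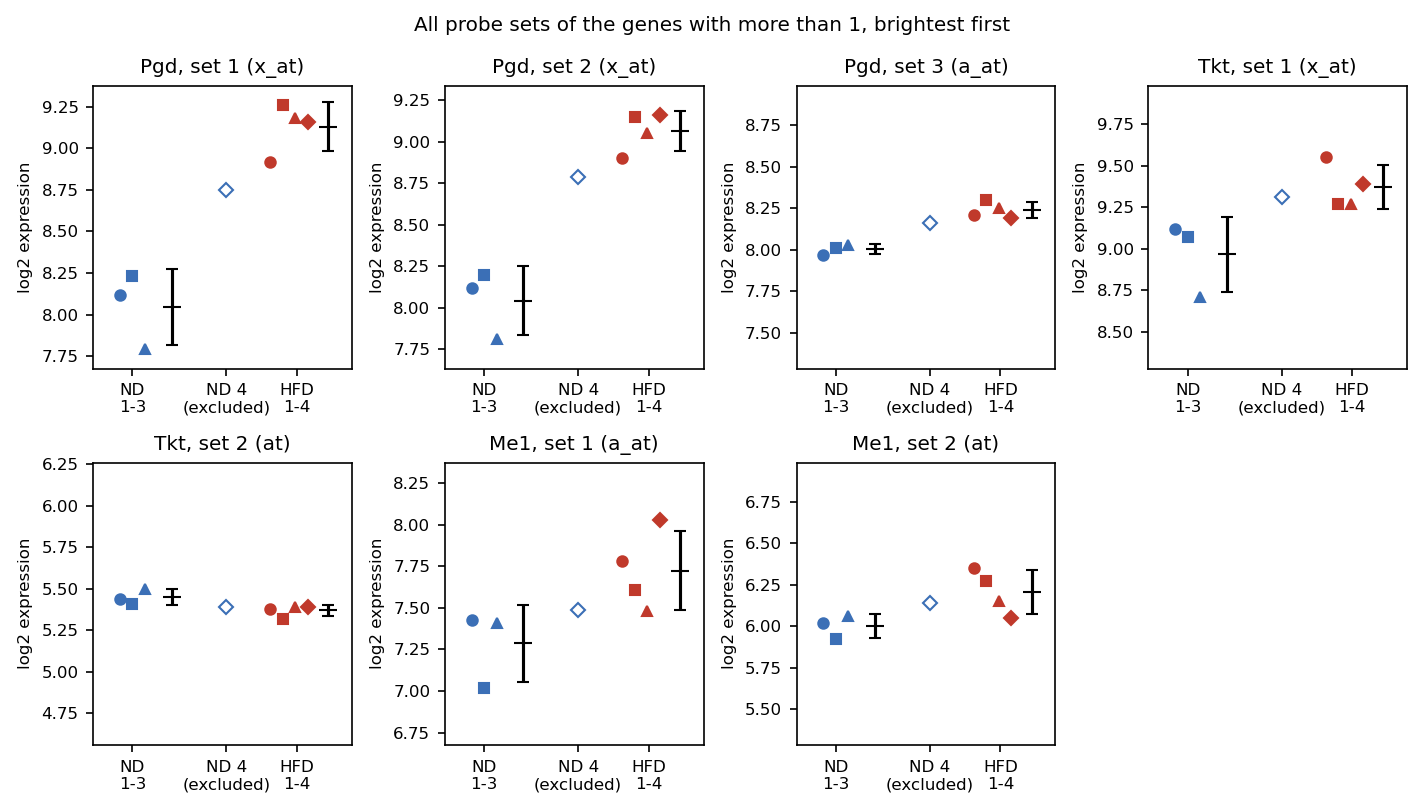
Log2 expression by array for all probe sets of Pgd, Tkt and Me1, the genes with more than 1 set, brightest first, with symbols, means and SDs as in the plot of the brightest sets. The x_at sets of Pgd differ between diets by 1.08 and 1.02 and its a_at set by 0.23. The x_at set of Tkt lies higher in HFD and its other set lower.

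The promoter sequences of the 3 genes whose HFD arrays lay above all ND arrays are printed to show the letters at the start of the gene, together with that of G6pdx, the entry enzyme that was not analysed here. Each line gives the 250 bases before the RefSeq start of GRCm38.p6, 5′ to 3′ on the gene's strand, with every searched motif in capitals. The searched motifs were the core of the antioxidant response element (TGACNNNGC), the E-box of the carbohydrate response type (CACGTG), the CCAAT box spelled by its name, and the GC box of the promoter-binding SP factors (GGGCGG), on both strands. The windows lie at chr4:149166706-149166955 on the minus strand for Pgd, chr14:30548881-30549130 on the plus strand for Tkt, chr9:86695915-86696164 on the minus strand for Me1 and chrX:74428881-74429130 on the minus strand for G6pdx. For Pgd and Me1, which have a further start in RefSeq, the window of the more upstream start is printed.
Pgd: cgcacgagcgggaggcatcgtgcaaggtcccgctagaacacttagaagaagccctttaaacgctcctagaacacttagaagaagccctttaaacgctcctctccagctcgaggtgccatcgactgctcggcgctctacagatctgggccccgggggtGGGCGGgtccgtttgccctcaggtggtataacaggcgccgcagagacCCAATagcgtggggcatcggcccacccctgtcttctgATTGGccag
Tkt: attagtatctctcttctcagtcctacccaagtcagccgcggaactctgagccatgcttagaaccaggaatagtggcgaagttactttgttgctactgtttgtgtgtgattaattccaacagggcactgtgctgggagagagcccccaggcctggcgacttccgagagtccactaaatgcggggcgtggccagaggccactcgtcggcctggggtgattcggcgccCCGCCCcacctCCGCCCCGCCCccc
Me1: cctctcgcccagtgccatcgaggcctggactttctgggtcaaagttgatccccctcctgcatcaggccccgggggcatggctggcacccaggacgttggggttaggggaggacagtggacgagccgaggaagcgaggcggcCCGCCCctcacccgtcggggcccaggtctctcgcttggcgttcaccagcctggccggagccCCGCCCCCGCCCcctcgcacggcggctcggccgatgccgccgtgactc
G6pdx: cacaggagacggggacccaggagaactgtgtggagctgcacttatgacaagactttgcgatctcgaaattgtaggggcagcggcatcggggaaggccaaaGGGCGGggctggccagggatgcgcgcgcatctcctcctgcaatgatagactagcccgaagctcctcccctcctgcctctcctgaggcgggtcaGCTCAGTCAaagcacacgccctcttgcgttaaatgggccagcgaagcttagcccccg
The Pgd window held 2 CCAAT motifs on opposite strands and 1 GC box. It also held a unit of 33 bases that is repeated directly after itself, starting 218 bases before the start, and a repeat unit of this length or longer was found in 0.21% of 32851 windows. Tkt and Me1 each held 3 GC boxes, some of them overlapping or adjacent, and no CCAAT. Of the 4 windows only that of G6pdx held the antioxidant response core, 57 bases before the start and on the opposite strand, beside 1 GC box. Over all promoter windows of the same length, 10.2% held the antioxidant response core, 6.02% the E-box, 33.8% CCAAT and 32.7% the GC box. No E-box was found in the 4 windows. The first windows of Pgls, Rpia, Rpe, Taldo1 and Idh1, not printed, also held at least 1 GC box each, and those of Taldo1 and Idh1 held CCAAT, so these motifs do not set the 3 genes apart from the rest of the list. These matches describe the letters only.

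The preceding step of the oxidative branch showed no such gap. Pgls, which opens the lactone ring made by glucose-6-phosphate dehydrogenase, read 7.50, 7.30 and 7.44 in ND 1 to 3 and 7.71, 7.35, 7.37 and 7.35 in HFD 1 to 4. HFD 1 stood alone above the ND arrays and the other HFD arrays lay within the ND range, as did ND 4 (7.32), giving a difference of 0.03 (SE 0.11). For the entry enzyme, the annotation names only G6pd2, a retrogene copy that closely resembles G6pdx, so that probes may not tell them apart. The brighter set of G6pd2, with the suffix s_at for sets shared by several transcripts, read 9.37, 9.29 and 9.04 in ND 1 to 3 and 9.30, 9.23, 9.01 and 9.31 in HFD 1 to 4, a difference of −0.02 (SE 0.11). G6pd2 is not on the list and was chosen after its values were seen. The diets overlapped, with HFD 3 just below the ND range.

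In the non-oxidative branch only transketolase separated the diets. Tkt, which transfers carbon units between sugar phosphates, read 9.12, 9.07 and 8.71 in ND 1 to 3 and 9.55, 9.27, 9.27 and 9.39 in HFD 1 to 4. The lowest HFD array was 0.15 above the highest ND array, ND 3 was the lowest of all as it was for Pgd, and ND 4 (9.31) lay inside the HFD range. The difference was 0.40 (SE 0.12), and 0.27 without ND 3. This is again an x_at set. The other set of Tkt was dimmer and read 5.44, 5.41 and 5.50 in ND 1 to 3 and 5.38, 5.32, 5.39 and 5.39 in HFD 1 to 4, so that it lay lower in HFD by a margin of 0.02 and with a difference of −0.08 (SE 0.06). The probe sets of Tkt thus had opposite signs.

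Taldo1, the transaldolase that works in sequence with Tkt, read 8.50, 8.42 and 8.50 in ND 1 to 3 and 8.68, 8.56, 8.40 and 8.64 in HFD 1 to 4. Of the HFD arrays 3 lay above the ND range and HFD 3 lay below it, ND 4 read 8.48, and the difference was 0.10 (SE 0.09). Rpia, which turns ribulose-5-phosphate into the ribose-5-phosphate used for nucleotides, read 8.50, 8.65 and 8.49 in ND 1 to 3 and 8.53, 8.35, 8.40 and 8.44 in HFD 1 to 4. HFD 1 lay within the ND range and the other HFD arrays below it, ND 4 read 8.49, with a difference of −0.12 (SE 0.09). Rpia had a spread within diets (pooled SD 0.08) that was smaller than in most genes of like level, whose median was 0.14.

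The dehydrogenases outside the pathway did not pass the threshold. Me1, which makes NADPH by turning malate into pyruvate, read 7.43, 7.02 and 7.41 in ND 1 to 3 and 7.78, 7.61, 7.48 and 8.03 in HFD 1 to 4. The diets did not overlap but came within 0.05 of each other, between ND 1 and HFD 3, and ND 4 (7.49) lay inside the HFD range. The difference was 0.44 (SE 0.15) and moved between 0.30 without ND 2 and 0.52 without HFD 3. Its spread within diets was wide, with a pooled SD of 0.24 that exceeded the SD of 89.7% of the 1000 genes nearest in level. A dimmer set of Me1 read 6.02, 5.92 and 6.06 in ND 1 to 3 and 6.35, 6.27, 6.15 and 6.05 in HFD 1 to 4. It overlapped through HFD 4, which was the highest array in the brighter set, and its difference was 0.21 (SE 0.09).

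Idh1, the cytosolic and peroxisomal enzyme that makes NADPH from isocitrate, read 10.15, 9.90 and 10.29 in ND 1 to 3 and 10.05, 9.91, 9.75 and 9.79 in HFD 1 to 4. HFD 3 and 4 lay below all ND arrays and HFD 1 and 2 within the ND range, and ND 4 (9.74) was the lowest array of all. The difference was −0.24 (SE 0.11), from −0.35 without ND 2 to −0.15 without ND 3. Idh1 has 1 probe set, of suffix s_at.

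Among the other measures of the arrays, a sign of RNA quality moved with Pgd, namely how far the 3′ probe sets of the array's Gapdh and Actb controls lay above the 5′ ones, as a mean log2 difference. It was −0.29, −0.34 and −0.18 in ND 1, 2 and 3, −0.37 in ND 4, and −0.40, −0.44, −0.38 and −0.44 in HFD 1 to 4. The array with the highest value, ND 3, had the lowest Pgd, and ND 4 stood between the diets in both. With this difference as a covariate Pgd differed by 0.70 (SE 0.18), Tkt by 0.11 (SE 0.19), Me1 by 0.55 (SE 0.27) and Idh1 by 0.02 (SE 0.18). In that fit 0 of all genes passed the threshold in limma, and 604 (3.53%) were at an unadjusted p under 0.05, against 22.1% without the covariate. All HFD arrays lay below ND 1 to 3 in this measure, so the fit cannot tell it apart from diet. The part of the 3′ minus 5′ difference was not tested beyond this fit. The mean of 17 keratinocyte markers was 6.85, 6.42 and 6.60 in ND 1 to 3, 7.17 in ND 4, and 6.51, 7.69, 7.22 and 7.16 in HFD 1 to 4. HFD 1 lay inside the ND range and the other HFD arrays above it. With the keratinocyte mean as a covariate Pgd differed by 0.96 (SE 0.15) and Tkt by 0.51, and 0 of the 7 measured genes passed the threshold. The part of keratinocyte RNA in the differences was not tested beyond this fit.

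**Figure D3:**
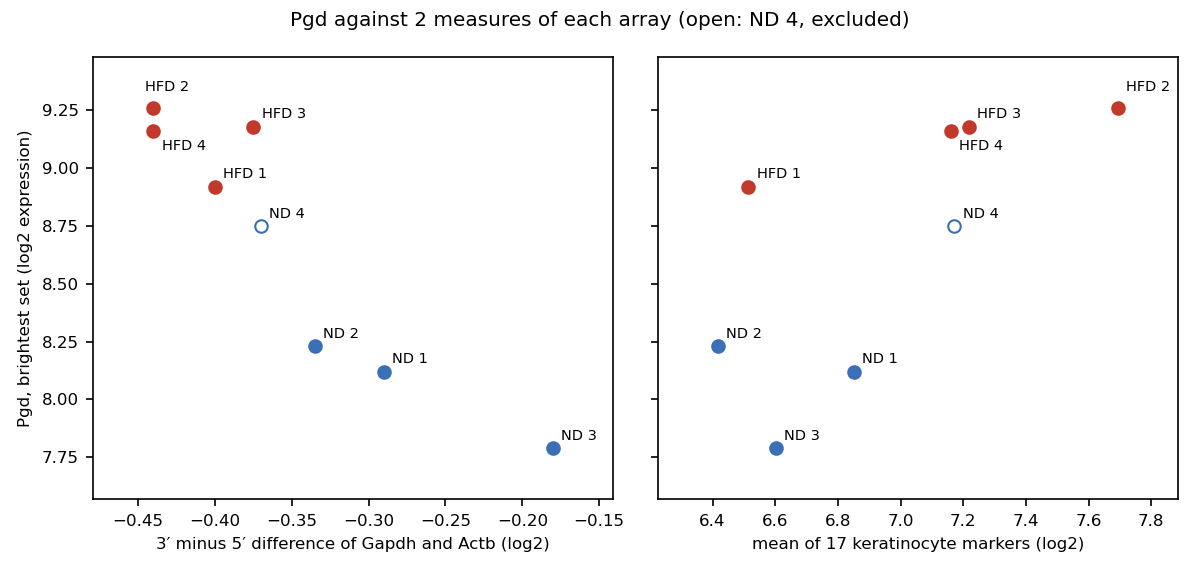
Log2 expression of the brightest Pgd set against the 3′ minus 5′ control difference (left, log2) and against the mean of 17 keratinocyte markers (right, log2), with 1 point per array, ND in blue, HFD in red and ND 4 open. On the left the points fall from HFD 2 at 9.26 to ND 3 at 7.79. On the right the marker mean of HFD 1 lies inside the range of ND 1 to 3 and those of HFD 2 to 4 above it.

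Of the genes that the sort selected for, Cd34 ranged over the 8 arrays from 12.06 to 12.17 and Pdgfra from 5.79 to 6.49. Pdgfra lay higher in all HFD arrays than in ND 1 to 3, with a difference of 0.34 (SE 0.11, adjusted p = 0.103). Of the genes that it selected against, Ptprc (CD45) ranged from 3.99 to 4.15, Kit (CD117) from 4.17 to 4.31, Cd24a from 5.49 to 6.35, Pecam1 (CD31) from 6.51 to 7.30 and Epcam from 5.11 to 5.35, and all 5 overlapped between diets. Levels of different probe sets cannot be set against each other, so these values do not measure the purity of the sort. Of 10 fibroblast and sort genes, Lum (−0.33) and Fbln1 (−0.26), both of the extracellular matrix, fell and 0 rose. Both calls were lost when any 1 array other than HFD 1 was left out, and the other sets of Fbln1 were at 0.01 and −0.24. The mean of 9 adipocyte markers ranged from 5.86 to 5.94 in ND 1 to 3 and from 5.86 to 5.97 in HFD, with 0 of 9 past the threshold in limma (0 at an unadjusted p under 0.05). The mean of 14 leukocyte markers ranged from 5.76 to 5.82 and from 5.77 to 5.85. Of the 14 markers, 4 were on the higher side in HFD, with a median of −0.02. Tyrobp, an adaptor of myeloid receptors, rose by 0.32 (SE 0.07, adjusted p = 0.0352 in limma). This call was lost without ND 1, ND 2, ND 3, HFD 3 or HFD 4. The mean of 6 sebocyte markers ranged from 6.74 to 6.90 and from 6.87 to 7.12. Of the 6 markers, 2 were on the higher side in HFD, with a median of −0.01. Far2, a fatty acyl reductase, rose by 0.39 (SE 0.08, adjusted p = 0.03 in limma). Its other set was at 0.03, and the call was lost with the mean of probe sets and without ND 2, ND 3, HFD 2, HFD 3 or HFD 4. Keratinocyte markers were all on the higher side in HFD (17 of 17, median 0.37), where 56.2% of all genes had a positive difference. Of the 17, 0 passed the threshold and 4 were at an unadjusted p under 0.05 in limma, against 22.1% of all genes. Without HFD 1, 4 of the 17 passed, and without HFD 2, 1 passed. Endothelial (10 genes, median 0.06) and pericyte and muscle markers (8 genes, median 0.03) had 0 past the threshold, with 0 and 1 at an unadjusted p under 0.05.

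Of 13 other pentose phosphate and ribose genes, 0 passed the threshold in either direction. In limma 3 of the 13 were at an unadjusted p under 0.05, against 22.1% of all genes. Their median change was −0.05, against 0.02 over all genes. Tktl1, a transketolase relative, differed by −0.63 (SE 0.17, adjusted p = 0.0568), with all HFD arrays below all ND arrays and both other probe sets on the lower side (−0.28 and −0.42). Prps1, which charges ribose-5-phosphate for nucleotide synthesis, differed by 0.29 (adjusted p = 0.143), Pgm2 by 0.28 (adjusted p = 0.132) and Prpsap2 by −0.21 (adjusted p = 0.349). H6pd, which runs the oxidative steps inside the endoplasmic reticulum, differed by −0.05 (SE 0.11) and was named after its value was seen. Of 10 other genes that make NADPH or its precursor NADP, 0 passed (limma, 2 at an unadjusted p under 0.05), with a median of −0.03. The NAD kinases Nadk (−0.22, adjusted p = 0.218) and Nadk2 (0.40, adjusted p = 0.157) did not pass, and their other sets had the opposite sign (0.08 for Nadk, and −0.17, −0.14 and −0.02 for Nadk2). Aldh1l2 differed by −0.46 (adjusted p = 0.244), from −0.73 without ND 1, where it passed the threshold, to −0.18 without ND 2. Aldh1l1 differed by −0.15 (adjusted p = 0.404). The mitochondrial counterpart of Idh1, Idh2, differed by −0.04 (SE 0.10), and the transhydrogenase Nnt by −0.11 (SE 0.13), both named after their values were seen.

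Glycolysis, which shares its intermediates with the pathway, moved in both directions. Of 17 measured genes, the hexokinase Hk1 (0.43, SE 0.10, adjusted p = 0.0397) and the phosphofructokinase Pfkp (0.42, SE 0.10, adjusted p = 0.046) rose, and Slc2a1, which carries glucose into the cell, fell by 0.90 (SE 0.21, adjusted p = 0.0387); the remaining 14, among them Aldoa (0.28, adjusted p = 0.0852), did not pass. The median was 0.20. Pfkp and Slc2a1 had a further set of the same sign (0.46 and −1.09), whereas that of Hk1 had the opposite sign (−0.25).

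On the side that spends NADPH, 0 of 13 redox enzymes passed (limma, 3 at an unadjusted p under 0.05, against 22.1% of all genes). Of these, 12 were on the higher side, against 56.2% of all genes, with a median of 0.23, and the list's mean was 7.65 to 7.76 in ND 1 to 3 and 7.89 to 8.00 in HFD, with ND 4 at 7.89. Cbr3, a carbonyl reductase, differed by 0.31 (adjusted p = 0.0687), the mitochondrial thioredoxin reductase Txnrd2 by 0.30 (adjusted p = 0.0978), glutathione reductase (Gsr) by 0.28 (adjusted p = 0.147) and Txnrd3 by 0.33 (adjusted p = 0.23). The other sets were at 0.09, −0.01 and 0.10 for Txnrd2, at 0.22 for Gsr and at 0.01 and 0.08 for Txnrd3. Of 13 genes of lipid synthesis and its regulators, 3 fell and 0 rose in limma, namely the desaturases Fads2 (−0.70, SE 0.16, adjusted p = 0.0382), Scd1 (−0.59, SE 0.14, adjusted p = 0.0413) and Fads1 (−0.56, SE 0.12, adjusted p = 0.033). Their other sets had the same sign but were smaller, at −0.29 and −0.30 for Fads2, −0.26 for Scd1 and −0.20 for Fads1. With the mean of probe sets only Fads1 passed. Desaturases act in fatty acid synthesis but draw their electrons mainly through NADH. Srebf2 differed by −0.37 (adjusted p = 0.132), and the median of the list was 0.01. Of 15 regulators and targets of NRF2, the transcription factor of the oxidative stress response that can also induce the pathway's enzymes, thioredoxin (Txn1) was higher by 0.50 (SE 0.09, adjusted p = 0.0224). The other 14 did not reach the threshold. Among these were Abcc1 (0.34, adjusted p = 0.0517), Hmox1 (−0.18, adjusted p = 0.463) and Slc7a11 (0.05, adjusted p = 0.499), and the list's median was 0.02. The other sets of Abcc1 (−0.13) and Slc7a11 (−0.10) had the opposite sign. Of 14 genes of nucleotide synthesis, which uses the pathway's ribose, 0 passed, and the median was 0.11. In limma 6 of the 14 were at an unadjusted p under 0.05, against 22.1% of all genes. The mean of this list, like that of the redox list, did not overlap between diets. It was 7.66 to 7.71 in ND 1 to 3, 7.74 to 7.85 in HFD and 7.69 in ND 4. How often means of such lists do not overlap was not computed, so nothing is read from these gaps. Ppat differed by 0.58 (adjusted p = 0.0795), Gart by 0.39 (adjusted p = 0.0821), Dhodh by 0.20 (adjusted p = 0.095) and Rrm1 by −0.27 (adjusted p = 0.0841). The other sets of Ppat (−0.09) and Rrm1 (0.17) had the opposite sign, those of Gart were at −0.01, 0.33 and 0.13, and that of Dhodh at 0.14. The calls of the 7 related genes past the threshold depended on single arrays and on the setting. With all 8 arrays, the replicate number as a block or either covariate, 0 of the 7 passed. The count was 1 without HFD 2, 2 without ND 2, 3 without ND 1 and 2 with the mean of probe sets. It stayed at 7 with quantile normalization, among genes brighter than the median and without x_at sets. Without ND 3, HFD 3 or HFD 4, 0 of the 7 passed in limma, with adjusted p-values from 0.068 to 0.174, while all 7 kept their direction.

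**Figure D4:**
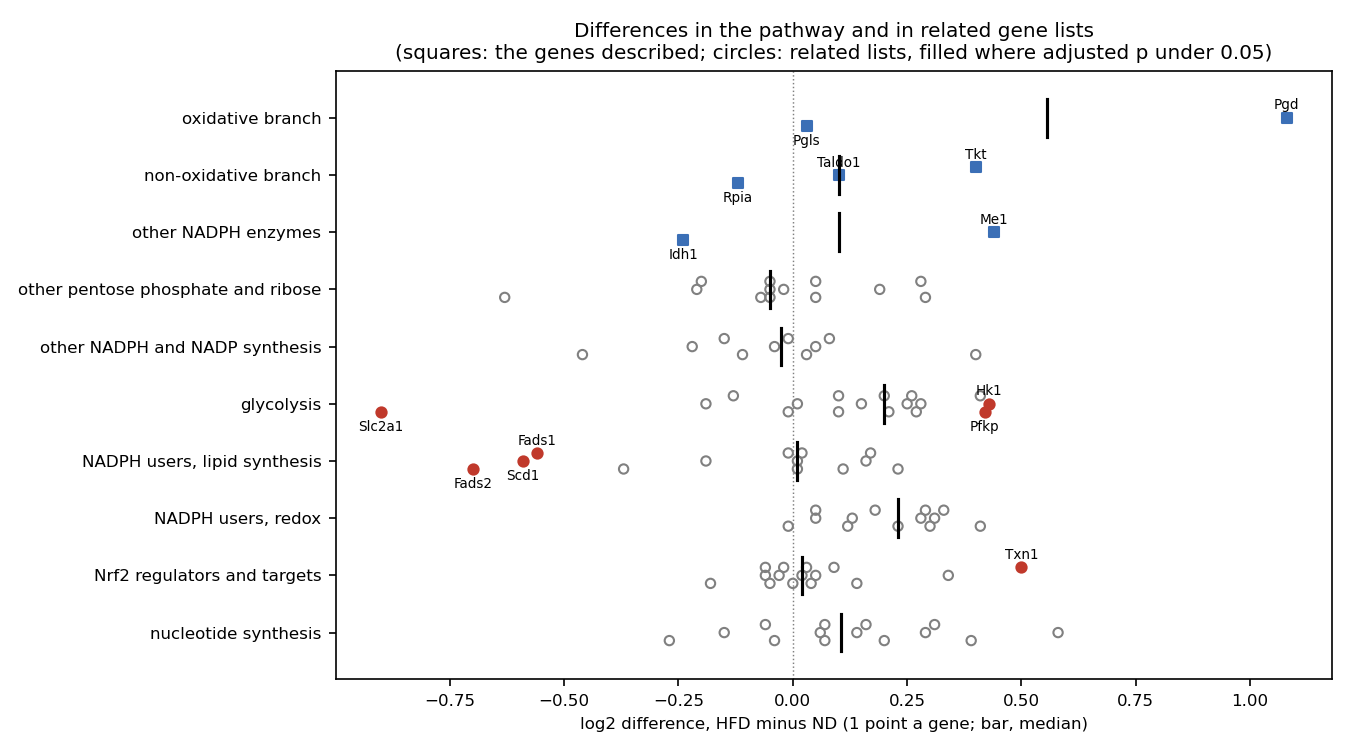
Log2 differences, HFD minus ND, of the 7 measured genes (squares) and of 7 related gene lists (circles, 1 per gene, filled where the adjusted p is under 0.05 over all genes), with the median of each row as a bar. Pgd lies at 1.08, and the other pentose phosphate and ribose genes centre on −0.05.

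The 5 genes whose values over the 7 arrays were most like those of Pgd, among 8283 genes brighter than the median, were the glutamine transporter Slc1a5, the inositol kinase Ip6k1, Ylpm1, the phosphatidylcholine enzyme Pcyt1a and the kinase Mtor. Their Pearson correlations with Pgd were 0.993 to 0.995 over 7 arrays that share the diets and the array measures given above, and 171 genes exceeded 0.95. Slc1a5 read 9.15, 9.28 and 8.89 in ND 1 to 3, 9.44 in ND 4, and 9.69, 10.05, 9.93 and 9.87 in HFD 1 to 4. As for Pgd, ND 3 was its lowest array and ND 4 lay between the diets. Ip6k1 read 9.87, 9.98 and 9.66 in ND 1 to 3, 10.28 in ND 4 and 10.33 to 10.49 in HFD. None of the 5 was represented by an x_at set. Such a set was the brightest for only 411 of all 17097 genes, so its absence among 5 genes is uninformative. The 5 were also picked for likeness to the brightest Pgd set, itself an x_at set. Nothing is therefore read from their suffixes about the x_at sets of Pgd.

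Across settings, which reuse the same arrays, the sign held for some genes and not for others. For Pgd, Tkt and Me1, whose diets did not overlap, leaving out 1 array could not turn it. The counts below are therefore no independent support. Pgd stayed higher in HFD in 17 of 17 alternatives, from 0.23 with x_at sets left out to 1.18 without ND 2, as did Me1 (0.30 to 0.55) and Taldo1 (0.06 to 0.15), and Rpia stayed lower in all 17 (−0.20 to −0.03). Tkt was higher in 16 of the 17 and lower without x_at sets (−0.08). Idh1 was lower in 16 of 17, the exception being the 3′ minus 5′ covariate, and Pgls lay between −0.06 and 0.16. The count of measured genes past the threshold fell from 1 to 0 without HFD 3, with all 8 arrays, with the replicate number as a block, with either covariate and without x_at sets. The share of all genes past it in these settings was 0.0351%, 0.0351%, 0.00585%, 0.117% (keratinocyte mean), 0% (3′ minus 5′ difference) and 5.31%. Among genes brighter than the median it was 16.2%, and 2 of the measured genes passed. In the settings that kept the count at 1, the share was 4.77% without ND 1, 2.84% without ND 2, 0.0643% without ND 3, 6.27% without HFD 1, 1.23% without HFD 2 and 0.0526% without HFD 4. It was 5.42% with quantile normalization, 5.57% with median centring, 5.46% without the trend and 2.34% with the mean of probe sets, against 5.35% as reported.

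**Figure D5:**
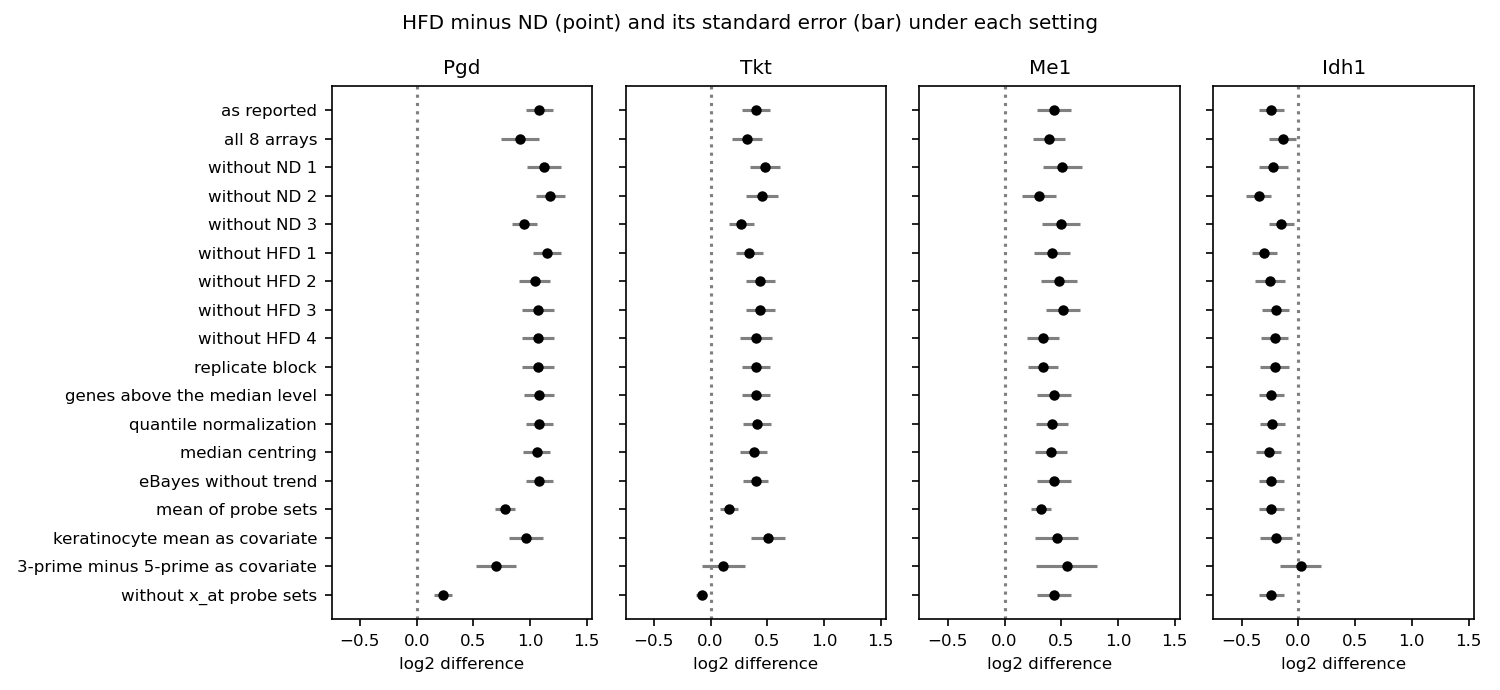
Log2 difference, HFD minus ND (point), and its standard error (bar) for Pgd, Tkt, Me1 and Idh1 as reported and under 17 other settings. Pgd moves from 1.08 to 0.23 without x_at probe sets and to 0.70 with the 3′ minus 5′ difference as a covariate, and Tkt turns to −0.08 without x_at sets.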

How the data were processed

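Expression on 8 arrays was taken from the deposited log2 values of 45141 probe sets, for which the submitters' processing notes name RMA and affy without versions. Quartiles differed by at most 0.04 log2 between arrays, so that total RNA per cell is not measured, and the number of arrays limits the precision. No pair of arrays was a duplicate (SD of the difference 0.165 or more). The platform annotation gave 28898 probe sets 1 symbol and 551 several, and 15692 were not listed. Symbols were updated by Entrez identifier for 28689 sets through RefSeq names of GRCm38.p6, which also gave the promoter sequences.

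Each gene was represented by its brightest set over the 7 arrays compared. HFD 1 to 4 were compared with ND 1 to 3 in limma 3.58.1 under R 4.3.3 (lmFit, eBayes with trend, 10.3 total degrees of freedom), with Benjamini-Hochberg adjustment over 17097 genes at 0.05, and likewise over every probe set. The fit was run on simulated data with noise drawn separately for each gene and array. It recovered 64% of changes of 0.5 and 95.8% of changes of 1, with 4.49% false calls. Differences that many genes of an array share were not simulated, so these rates do not cover them. Members and lists were chosen with earlier results of these data known. Up to 4 genes of each related list with the smallest p were named, and the 5 genes most like Pgd. Alternatives were ND 4 included, each array left out, the specimen number as a block, dim genes left out, quantile normalization, median centring, eBayes without trend, the mean of probe sets, and the keratinocyte mean or the 3′ minus 5′ difference as a covariate. Leaving out x_at sets was chosen after seeing the data. Figures were drawn with matplotlib 3.10.9.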

Additional observations from a re-analysis of the deposited data

Results flagged for a closer look

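ND 4, which the labels exclude and the comparison does not use, lay above ND 1 to 3 and nearer to the HFD mean than to the ND mean in several probe sets of these genes. It read 8.75, 8.79 and 8.16 in the 3 sets of Pgd, 9.31 in the x_at set of Tkt and 6.14 in the dimmer set of Me1. Among the 4 HFD arrays, HFD 1 stood apart from the other three in Pgls (7.71, the highest), and HFD 2 in the dimmer set of Tkt (5.32, the lowest). Chance gives such a gap in about 1 of 20 groups of this size.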

How the results depend on the processing

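The count of all genes past the threshold was 914 as reported. It was 6 with all 8 arrays, 1 with the replicate block, 1387 among genes above the median level, 400 with the mean of probe sets, 20 with the keratinocyte covariate and 0 with the 3′ minus 5′ covariate (604 at an unadjusted p under 0.05), and 6 to 1072 when 1 array was left out, with 6, 9, 11, 210 and 485 without HFD 3, HFD 4, ND 3, HFD 2 and ND 2. Of the 7 measured genes, 1 passed as reported, 2 among genes above the median level (Pgd and Tkt), and 0 with all 8 arrays, the replicate block, either covariate or without x_at sets, and 0 to 1 when 1 array was left out. The difference of Pgd moved to 0.78 with the mean of probe sets, 0.70 with the 3′ minus 5′ covariate and 0.23 without x_at sets. It was 1.07 with the replicate block, the same as without HFD 4. In the block fit HFD 4 had no compared ND array of its number, so it added nothing to the difference between diets. The specimen numbers are not known to pair mice, and deviations of same-numbered arrays correlated at −0.18, −0.29 and −0.05, so the block shares only a number. Some related genes turned sign, namely Prps1 (−0.03), Srebf2 (0.06) and Txnrd3 (−0.03) with the 3′ minus 5′ covariate, Slc7a11 (−0.03) with the mean of probe sets and Gart (−0.01) without x_at sets. The cause was not tested.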
